A study of Mus musculus with 6 samples.

Results

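The 37 genes described here act in DNA repair: in homologous recombination, end joining, mismatch repair, excision repair and damage signalling. They were taken by gene symbol from the 54532 gene rows of a table of RNA sequencing values, and all 37 were found. The table covers whole CD4 T cells from mouse spleen and lymph nodes, as bulk samples, with 3 libraries labelled WT and 3 labelled KO for Prmt5, which encodes an arginine methyltransferase. The WT samples, numbered 1, 2 and 4, carry the genotype label iCD4-PRMT5fl/fl, and the KO samples, numbered 1, 4 and 5, the label iCD4-PRMT5 delta/delta. Values per library are given below in that order. Both groups are on the C57BL/6 strain. The labels name neither the driver nor the timing of the deletion, nor the animals' age. The treatment label of all 6 samples states anti-CD3/CD28 for 48 h, which is stimulation through the T cell receptor, whereas every sample title carries the word rest. The activation state is thus not settled by the labels, and it is the same label in both groups. By a code in their descriptions, WT 1, WT 2 and KO 1 belong to library series 22, and WT 4, KO 4 and KO 5 to series 24.

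DNA breaks are sensed by the MRN complex and the kinase ATM, or, at exposed single strands, by the kinase ATR, and both pass the signal to checkpoint kinases. A broken end is either joined directly or resected and copied from the sister chromatid by homologous recombination, a route open to cells that have replicated their DNA. Damaged bases, bulky lesions and mispaired bases are removed by base excision, nucleotide excision and mismatch repair. Several of these genes have set tasks in lymphocytes: end joining completes the rearrangement of antigen receptor genes, and ATM is mutated in ataxia telangiectasia, which includes immune deficiency. PRMT5 dimethylates arginines of splicing proteins, among others, and has been linked in other cells to DNA repair through RUVBL1 and the acetyltransferase TIP60, encoded by Kat5. The comparison asks which of these transcripts differ in amount between samples labelled KO and WT. The values are totals per gene, and splicing was not analysed here.

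Values are robust FPM, that is sequenced fragments assigned to a gene and scaled by the authors with robust size factors. Prmt5 (chromosome 14, 54507187 to 54517525) measured 34.9, 41.0 and 43.9 in WT and 24.4, 23.8 and 21.5 in KO. Each KO value was thus lower than any WT value, with a log2 difference of -0.78 (SE 0.137) that missed the threshold over all genes (limma adjusted p = 1). Transcripts without the deleted part would be counted as well, since the value is that of the gene as a whole. Cd4, which defines the cells, measured between 388.8 and 465.0, and the 8 T cell markers summed to between 2240 and 2857 in WT and between 2568 and 2818 in KO. The 8 myeloid markers, none of which was at 0 in any library, summed to between 171 and 701 in WT and between 447 and 1108 in KO. By series, they summed to between 171 and 447 in series 22 and between 513 and 1108 in series 24. The 7 B cell markers summed to between 15.4 and 26.6. The beta and alpha globin genes Hbb-bs and Hba-a1 were listed at 0 in every library. The genes induced by handling or heat shock that were measured, Fos, Jun, Hspa1a, Hspa1b and Hsph1, summed to between 807 and 1136 in series 22 and between 250 and 304 in series 24. In WT 1, 21275 genes reached a value of 1, against between 13876 and 15003 in the other libraries. In these bulk samples, fewer cells of a type and less RNA per cell cannot be told apart. The part that myeloid cells or handling play in the values below was not tested.

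None of the 37 repair genes differed between the genotypes by more than the spread between libraries. All 37 had a mean of at least 1 FPM and entered the test, and 0 passed in either direction, with a limma adjusted p of 1 for every one. Over all 14944 genes tested, the share called was likewise 0% higher and 0% lower. At an unadjusted p under 0.05 there were 0 repair genes and 37 of all 14944 genes. Evenly spread p-values would give a share of 0.05, so the test was sparing for all genes, and Prmt5 was not called either. The absence of calls thus does not show that the repair genes are unchanged. The smallest unadjusted p from limma among the repair genes was 0.276, that of Kat5. The KO and WT values of every repair gene overlapped or, for Xrcc3, met, whereas over all genes 1.09% lay wholly higher and 1.79% wholly lower in KO. The fitted log2 differences, KO minus WT on log2(FPM + 0.5) with library series as a term, ran from -0.21 for Fanca to 0.20 for Xrcc3. Of them 16 were above 0 and 21 below, with a median of -0.02, beside 0.01 for all genes tested. These signs hold for the deposited scaling only: scaled to the ERCC spike-in rows, 1 was above 0 and 36 below, with medians of -0.23 for the repair genes and -0.20 for all genes. Scaled to equal sums, 20 were above 0 and 17 below.

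The size of difference that these libraries can exclude is set by the spread between them and by the scaling. The intervals here are for the deposited scaling only. With spike-in scaling the log2 difference of Fanca moved from -0.21 to -0.42 and the median of the repair genes from -0.02 to -0.23. The counts of excluded differences were not taken under that scaling. The 95% interval of the limma fit excluded a 2-fold difference for 37 of the 37 repair genes, against 85.1% of all genes tested. It excluded a 1.5-fold difference for 32 of them, against 60.1% of all genes. The remaining 5 were Palb2, Rad54l, Xrcc3, Fanca and Fancd2, all of low value, with means under 10 FPM. The interval was widest for Fanca (-0.75 to 0.32), Xrcc3 (-0.35 to 0.74) and Fancd2 (-0.67 to 0.44), and among the narrowest for Atm (-0.27 to 0.21).

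**Figure D1:**
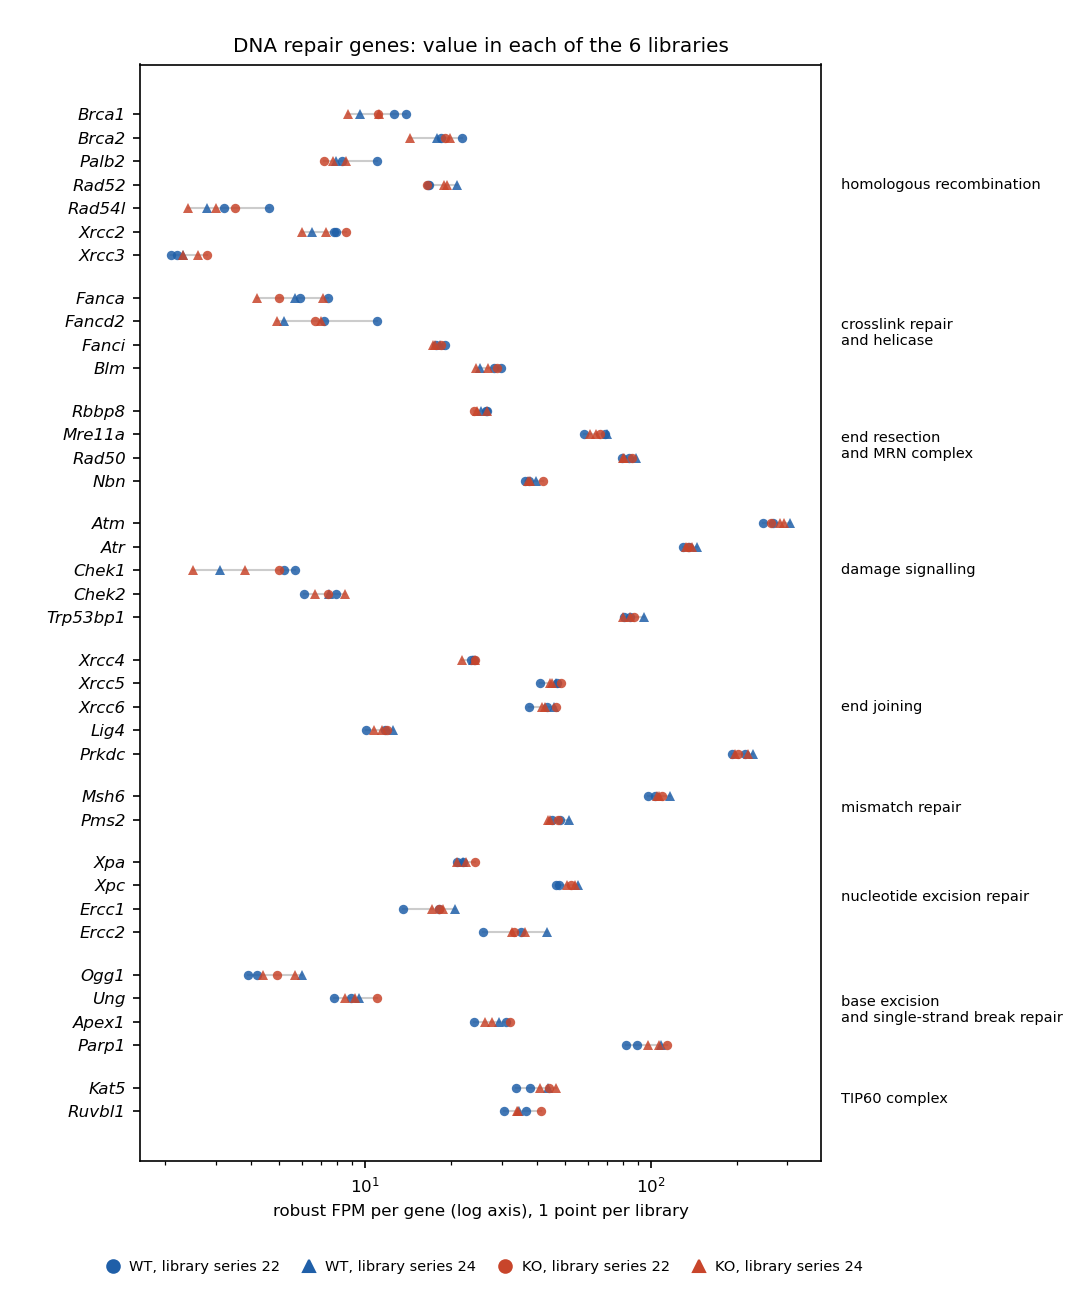
Robust FPM (log axis) of the 37 repair genes, ordered by role, with 1 point for each of the 6 libraries; blue is WT, red is KO, circles are library series 22 and triangles series 24, and the grey line spans the libraries. The ranges of red and blue points meet or overlap in every row, and the rows of Chek1, Fancd2 and Rad54l are the most spread.

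**Figure D2:**
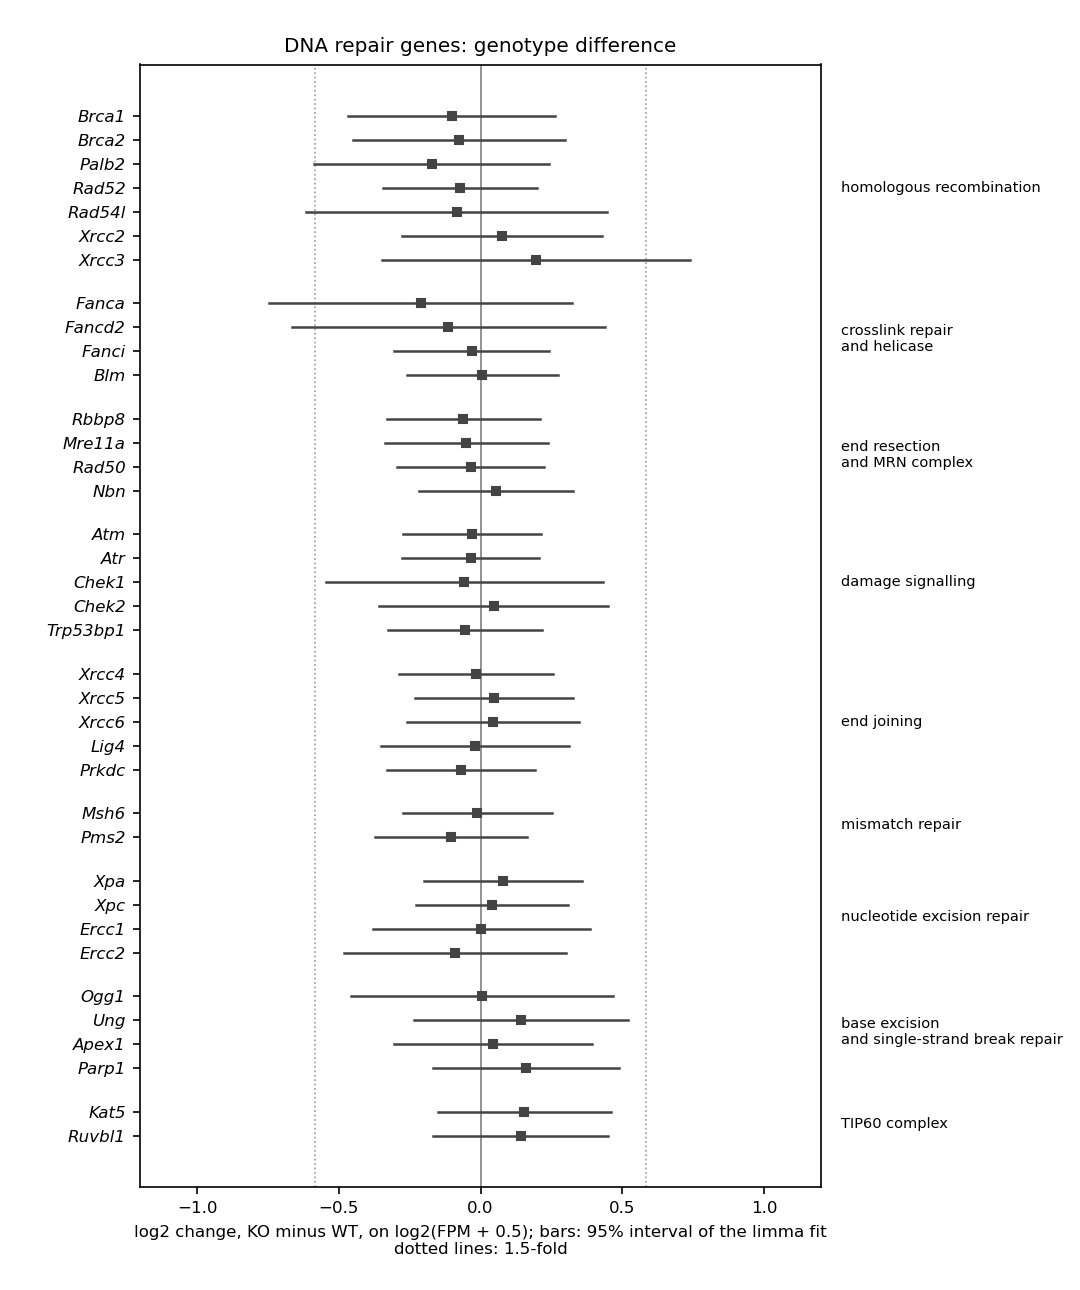
Fitted log2 difference, KO minus WT, on log2(FPM + 0.5) for the 37 repair genes, with bars for the 95% interval of the limma fit and dotted lines at a 1.5-fold difference. Every bar crosses 0, and 5 of them reach a dotted line.

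In homologous recombination, BRCA1, PALB2 and BRCA2 bind each other in a chain and act at resected ends. Brca1 (chromosome 11, 101488764 to 101551955) measured 13.9, 12.6 and 9.6 in WT and 11.1, 8.7 and 11.2 in KO. The group means were 12.0 ± 2.21 (WT) and 10.3 ± 1.42 (KO; SD, n = 3), and the fit gave a log2 difference of -0.10 (SE 0.158; limma adjusted p = 1). The low value of the WT group was WT 4, which lay below KO 1 and KO 5. Palb2, whose product bridges BRCA1 and BRCA2, measured 11.0, 8.3 and 7.9 in WT and 7.2, 7.7 and 8.6 in KO. WT 1 stood above the other 5 libraries, and the log2 difference was -0.17 (SE 0.179; limma adjusted p = 1). It had the smallest p of the 7 genes of this route. Brca2 measured between 17.8 and 21.8 in WT and between 14.3 and 19.8 in KO.

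The other genes of the route encode further recombination factors. Xrcc3 measured 2.2, 2.1 and 2.3 in WT and 2.8, 2.3 and 2.6 in KO. The lowest KO value equalled the highest WT value, so that the groups met without separating, at a log2 difference of 0.20 (SE 0.234; limma adjusted p = 1). Xrcc2 measured between 6.5 and 7.9 in WT and between 6.0 and 8.6 in KO. Rad54l, which encodes a DNA-dependent motor protein, measured 4.6, 3.2 and 2.8 in WT and 3.5, 2.4 and 3.0 in KO. Rad52, which anneals single strands, measured 16.7, 16.6 and 20.9 in WT and 16.4, 19.4 and 18.9 in KO. Within both genotypes Rad52 was higher in series 24 than in series 22. Of the 7 genes, 5 had fitted differences below 0 and 2 above, with a median of -0.08, and with spike-in scaling Xrcc3 alone was above 0.

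Crosslink repair depends on the Fanconi anaemia proteins, of which FANCA belongs to the core complex and FANCD2 and FANCI are the pair that it ubiquitinates. Fanca (chromosome 8, 123268300 to 123318576) measured 7.4, 5.9 and 5.7 in WT and 5.0, 4.2 and 7.1 in KO. The KO group held both the lowest value and the value nearest to the WT maximum. The log2 difference was -0.21 (SE 0.231; limma adjusted p = 1). With the background level described below taken off it was -0.12. Fancd2 measured 11.0, 7.2 and 5.2 in WT and 6.7, 4.9 and 7.0 in KO, and on the scale of FPM + 0.5 its value in WT 1 was 2.13 times its lowest, in KO 4. Its partner Fanci varied least of the 37 genes, from 17.3 to 19.0 over the 6 libraries, a ratio of 1.10 on that scale. Blm, the helicase mutated in Bloom syndrome, measured 29.8, 28.3 and 25.3 in WT and 28.9, 24.5 and 26.8 in KO. KO 4 was the lowest library for all 4 genes of this group. With the background level taken off, this held for Fanca, Fancd2 and Blm, whereas Fanci was lowest in WT 1. Fanci then ran from 16.0 in WT 1 to 18.5 in WT 2 and no longer varied least. Xrcc4, for example, ran from 21.7 to 24.1.

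End resection starts with CtIP, encoded by Rbbp8, and the MRN complex of MRE11, RAD50 and NBS1. Rbbp8 measured 26.5, 26.6 and 25.4 in WT and 24.1, 24.7 and 26.7 in KO. Its values spanned a ratio of 1.11 on the scale of FPM + 0.5, and the log2 difference was -0.06 (SE 0.117; limma adjusted p = 1). The complex was steady as well. Mre11a measured between 58.4 and 70.4 in WT and between 61.1 and 66.4 in KO. Rad50 measured between 78.9 and 88.9 in WT and between 80.1 and 85.8 in KO. Nbn, which encodes NBS1, measured between 36.3 and 39.5 in WT and between 37.2 and 42.0 in KO.

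Among the damage signalling genes, Atm (chromosome 9, 53439149 to 53536740) had the highest FPM of the 37. It measured 246.9, 267.2 and 305.9 in WT and 263.5, 281.5 and 291.1 in KO. The group means were 273.3 ± 30.0 (WT) and 278.7 ± 14.0 (KO; SD, n = 3). The means placed KO higher, whereas the fit with a series term gave a log2 difference of -0.03 (SE 0.105; limma adjusted p = 1). Of the WT libraries 1 and of the KO libraries 2 belong to series 24, where Atm lay higher in both genotypes. Atr measured between 129.4 and 144.6 in WT and between 132.8 and 138.8 in KO. Trp53bp1, whose product 53BP1 shields ends from resection, measured 80.2, 84.3 and 94.2 in WT and 87.4, 80.1 and 84.1 in KO, a log2 difference of -0.06 (SE 0.117; limma adjusted p = 1). Chek1, the checkpoint kinase downstream of ATR, measured 5.7, 5.2 and 3.1 in WT and 5.0, 2.5 and 3.8 in KO. The 3 libraries of series 22 were its 3 highest in both genotypes together. Chek2, the kinase downstream of ATM, measured between 6.1 and 7.9 in WT and between 6.7 and 8.5 in KO.

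End joining uses the Ku heterodimer of Xrcc5 and Xrcc6, the catalytic kinase subunit DNA-PKcs of Prkdc, and the ligase complex of Lig4 and Xrcc4. Prkdc measured 191.9, 213.3 and 227.6 in WT and 201.9, 196.8 and 217.9 in KO. The KO values lay within the WT range, and the log2 difference was -0.07 (SE 0.112; limma adjusted p = 1). The Ku genes had the same extreme libraries. Xrcc5 measured 41.0, 46.9 and 46.4 in WT and 48.6, 44.9 and 44.5 in KO, and Xrcc6 measured 37.3, 43.4 and 45.8 in WT and 46.6, 42.7 and 41.4 in KO. Both were lowest in WT 1 and highest in KO 1, as were Ung, Apex1, Parp1 and Ruvbl1, so that this is not particular to the Ku pair. Xrcc4 measured between 23.5 and 24.1 in WT and between 21.8 and 24.2 in KO, and Lig4 between 10.1 and 12.5 in WT and between 10.7 and 11.9 in KO.

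The mismatch repair genes were Msh6, whose product recognises mispaired bases, and Pms2, whose product cuts the strand to be replaced. Pms2 measured 45.2, 48.1 and 51.5 in WT and 47.1, 43.7 and 44.4 in KO. Its log2 difference was -0.10 (SE 0.116; limma adjusted p = 1), and KO 1 lay above WT 1. Msh6 measured 103.0, 97.4 and 116.6 in WT and 108.8, 106.2 and 104.9 in KO. WT 4 was the highest library for both.

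In nucleotide excision repair, XPC finds the lesion, XPA verifies it, and the helicase XPD of Ercc2 opens the DNA. A nuclease complex that includes the product of Ercc1 then cuts the DNA. Xpa measured 21.0, 22 and 22 in WT and 24.3, 21.0 and 22.5 in KO. It had the smallest p of the 4 genes, at a log2 difference of 0.08 (SE 0.121; limma adjusted p = 1). Ercc2 measured 25.9, 35.1 and 43.1 in WT and 33.3, 32.6 and 36.2 in KO. The WT group thus spanned a ratio of 1.65 on the scale of FPM + 0.5 and held both the lowest and the highest library, with the KO values between them. Ercc1 measured between 13.6 and 20.6 in WT and between 17.1 and 18.7 in KO, again with the KO values inside the WT range. Xpc measured between 46.4 and 55.6 in WT and between 51.0 and 54.3 in KO. WT 1 was the lowest library for all 4 genes, tied with KO 4 for Xpa.

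In base excision and single-strand break repair, the glycosylases of Ogg1 and Ung remove oxidised guanine and uracil, the endonuclease of Apex1 cuts the backbone, and PARP1 marks the break. Parp1 (chromosome 1, 180568924 to 180601254) measured 81.5, 89.1 and 108.7 in WT and 113.7, 97.6 and 106.2 in KO. The 2 lowest libraries were WT 1 and WT 2, and WT 4 lay above KO 4 and KO 5. The group means were 93.1 ± 14.0 (WT) and 105.8 ± 8.06 (KO; SD, n = 3), and the fit gave a log2 difference of 0.16 (SE 0.142; limma adjusted p = 1). Ung measured 7.8, 8.9 and 9.5 in WT and 11.0, 8.5 and 9.2 in KO. Ogg1 measured between 3.9 and 6.0 in WT and between 4.4 and 5.7 in KO, and Apex1 between 24.1 and 31.2 in WT and between 26.2 and 32.0 in KO. All 4 fitted differences were above 0, with a median of 0.09, but all 4 were below 0 with spike-in scaling, and none passed the test. WT 1 was the lowest library for all 4.

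The TIP60 complex acetylates histones and ATM at breaks, and Kat5 and Ruvbl1, the genes behind the link between PRMT5 and repair named above, are its acetyltransferase and one of its ATPases. Kat5 (chromosome 19, 5603014 to 5610237) measured 33.7, 37.7 and 43.5 in WT and 44.1, 46.7 and 40.8 in KO. One WT library, WT 4, lay above KO 5, and the other WT libraries lay below every KO library. The group means were 38.3 ± 4.93 (WT) and 43.9 ± 2.96 (KO; SD, n = 3), and the fit gave a log2 difference of 0.15 (SE 0.132; 95% interval -0.15 to 0.46; limma adjusted p = 1). Ruvbl1 (chromosome 6, 88465409 to 88497572) measured 30.7, 36.4 and 34.5 in WT and 41.3, 34.0 and 34.2 in KO. Here KO 1 alone stood high while KO 4 and KO 5 lay below WT 2 and WT 4, and the log2 difference was 0.14 (SE 0.133; 95% interval -0.17 to 0.45; limma adjusted p = 1). For both genes the difference was 0.30 within series 22 and near 0 within series 24 (0.00 for Kat5 and -0.02 for Ruvbl1).

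The same was computed for the whole set. Within series 22, which sets KO 1 against WT 1 and WT 2, 26 of the 37 log2 differences were above 0, with a median of 0.09. Within series 24, which sets KO 4 and KO 5 against WT 4, 9 were above 0, with a median of -0.08. The medians over all genes tested were 0.12 and -0.08. The sign was opposite in the 2 series for 27 repair genes, or 73.0%, beside 70.9% of all genes. Parp1 had the largest difference in series 22, 0.41, and measured -0.09 in series 24. The test of whether the genotype difference itself differs between the series called 0 of the 37 genes, as it called 0% of all genes (limma, smallest adjusted p among the repair genes 0.678). For Parp1 this interaction was -0.51 (SE 0.198, unadjusted p = 0.0431 from limma), the only one of the 37 under 0.05 before adjustment. Each series holds a single library of 1 genotype, KO 1 or WT 4, so that these differences rest on those libraries.

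**Figure D3:**
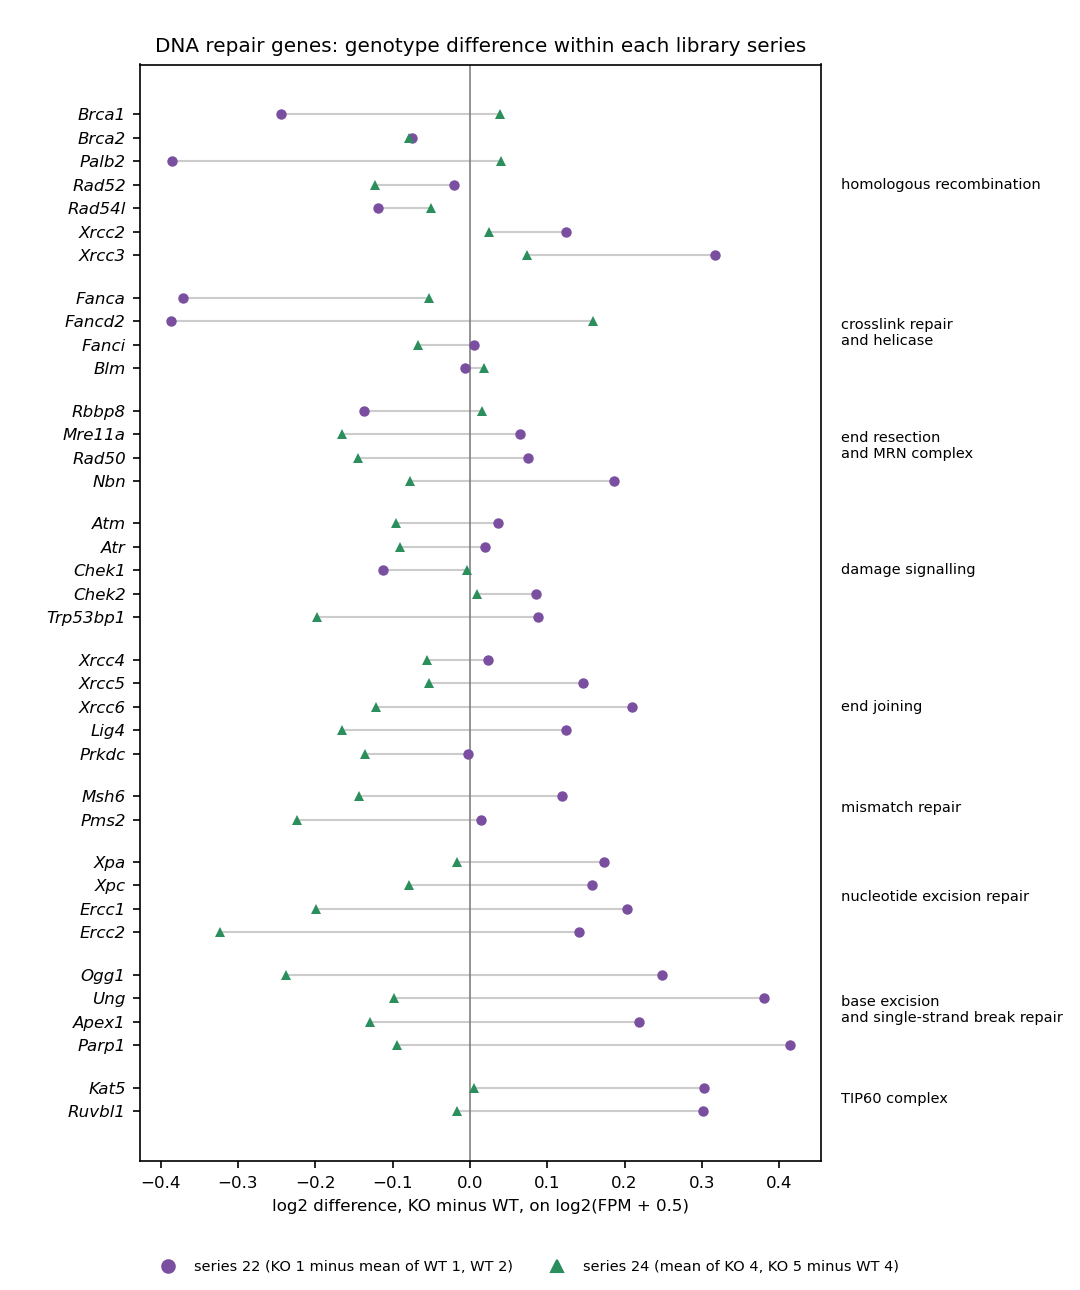
Log2 difference, KO minus WT, on log2(FPM + 0.5) for the 37 repair genes, computed within library series 22 (purple circles, KO 1 minus the mean of WT 1 and WT 2) and within series 24 (green triangles, mean of KO 4 and KO 5 minus WT 4). Circles lie to the right of 0 for 26 genes and triangles for 9, and the gene with the circle farthest to the right is Parp1.

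Between the series themselves, Chek1 was the repair gene that differed most. Its log2 difference, series 24 minus series 22 with genotype as a term, was -0.67 (SE 0.211, unadjusted p = 0.0136), which did not pass after adjustment (limma adjusted p = 0.432). Limma called 0 of the 37 genes between the series, beside 0.00669% of all genes higher and 0.134% lower in series 24. The values of the 2 series did not overlap for 6 repair genes. Atm (0.19, limma adjusted p = 0.677) and Rad52 (0.27, limma adjusted p = 0.568) lay higher in each library of series 24, beside 14.3% of all genes. Chek1, Rad54l (-0.36, limma adjusted p = 0.704), Xrcc2 (-0.30, limma adjusted p = 0.632) and Blm (-0.18, limma adjusted p = 0.704) lay lower in each library of series 24, beside 6.14% of all genes. With the background level described below taken off, Rad54l was -0.16 and Xrcc2 -0.23, and their values then overlapped between the series, whereas those of Chek1, Blm, Atm and Rad52 still did not. The log2 differences of the 37 genes between the series had a median of 0.01, and the median over all genes was 0.06. The fitted difference was below 0 for 18 of the 37 genes, among them 6 of the 7 homologous recombination genes and all 4 crosslink genes. With spike-in scaling Palb2, Xrcc3, Fanca and Fanci turned to above 0, and with total-sum scaling Fanci did. With the background level taken off, 4 of the 37 genes turned direction between the series. The log2 values of the homologous recombination genes, each centred on its own mean, then averaged -0.08, 0.01 and 0.11 in WT 1, WT 2 and KO 1. In WT 4, KO 4 and KO 5 they averaged 0.04, -0.16 and 0.09, so that the 2 series overlapped.

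The repair genes also differed in which library was extreme. WT 4 held the highest value for 14 of the 37 genes, KO 1 for 11 and WT 1 for 8, while WT 1 held the lowest for 16 and KO 4 for 10, with a tie counted for the first library in the order given. The 8 genes highest in WT 1 were 4 of homologous recombination, 3 of crosslink repair and Chek1. The 16 lowest there included all 4 of nucleotide excision repair, all 4 of base excision repair and both TIP60 genes. A low WT 1 was not particular to these roles. It was also the lowest library for 64 of the 120 other repair genes described below, 6 of the 8 T cell markers and 7 of the 8 myeloid markers. For the DNA replication genes this held for 5 of 23, and for the mitosis genes for 1 of 20. On the scale of log2(FPM + 0.5) centred on each gene's mean over the libraries, the homologous recombination genes averaged 0.19 in WT 1 and the crosslink genes 0.27, whereas the nucleotide excision genes averaged -0.24 and the base excision genes -0.25. In KO 4 the crosslink genes averaged -0.26, the damage signalling genes -0.16 and the homologous recombination genes -0.15. The replication and mitosis genes were also low in KO 4. The 20 mitosis genes summed to 184 FPM in KO 4 and to between 315 and 354 in the others, with 19 of the 20 at their lowest in KO 4. The 23 DNA replication genes summed to 786 in KO 4 and to between 870 and 1119 elsewhere. How far the share of dividing cells accounts for the low repair values of KO 4 was not tested.

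**Figure D4:**
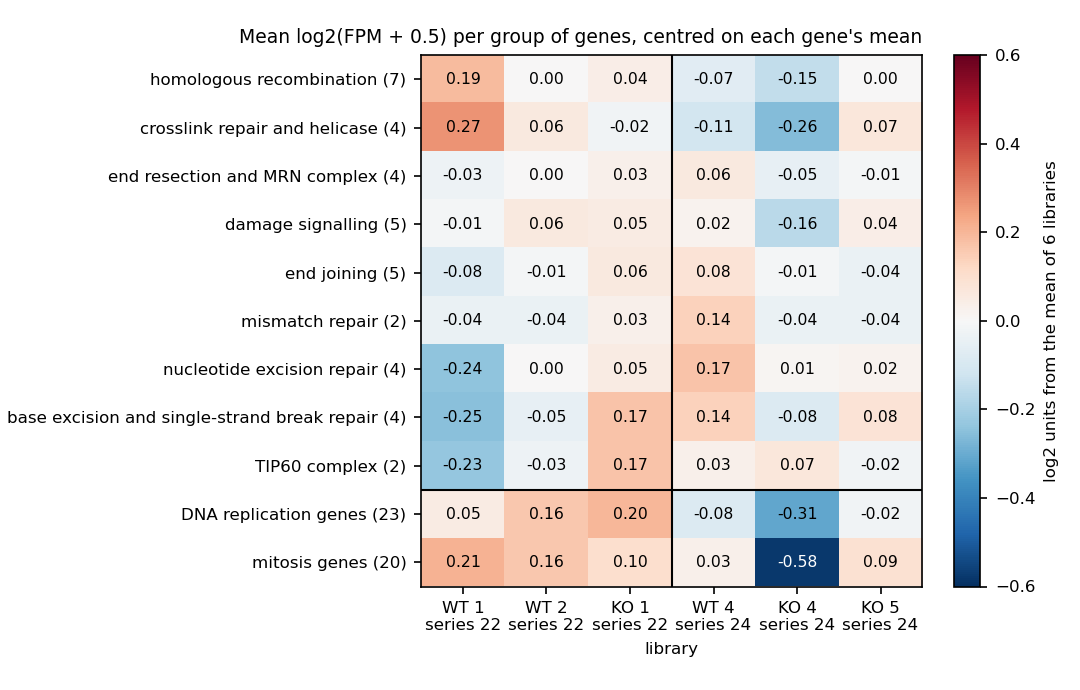
Mean log2(FPM + 0.5) of the repair genes in each role, and of replication and mitosis genes, after centring each gene on its mean over the 6 libraries (number of genes in parentheses; red above, blue below the mean; the vertical line parts the library series). On these values, with no background taken off, recombination and crosslink genes are highest in WT 1, where excision repair and TIP60 genes are lowest. KO 4 is the lowest column for crosslink, mitosis and replication genes. With the background level taken off, recombination genes averaged -0.08 in WT 1, and crosslink genes were highest in KO 5 (0.14, beside 0.08 in WT 1).

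Signal where no transcript is expected also differed between the libraries, and it weighs on the low genes. At 1459 genes for olfactory and vomeronasal receptors, which T cells are not known to use, the libraries held 0.300 FPM per kb of exon in WT 1, 0.0850 in WT 2, 0.0143 in WT 4, 0.0344 in KO 1, 0.0811 in KO 4 and 0.0253 in KO 5. At that level, 50.3% of the value of Rad54l in WT 1 would be such signal, 37.5% of that of Xrcc3, 35.6% of that of Fanca and 24.4% of that of Chek1, but only 1.26% of that of Atm. For 22 of the 37 genes the share was under 10% in every library. With this level taken off, an alternative chosen after seeing the data, the homologous recombination genes averaged -0.08 in WT 1 in place of 0.19, and the crosslink genes 0.08 in place of 0.27. The low mean of the crosslink genes in KO 4 was then -0.29, and that of the base excision genes in WT 1 was -0.36. Those are means over roles, and single genes differed from them: Palb2 was still highest in WT 1, with 8.80, 7.68 and 7.80 in WT and 6.95, 7.10 and 8.41 in KO, whereas Rad54l was then second lowest there, with 2.29 beside 1.78 in KO 4.

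Levels were compared between genes per kb of exon. Atm led with 26.7 ± 2.04 FPM per kb (SD, n = 6 libraries), followed by Msh6 with 24.4 ± 1.47, Apex1 with 20.0 ± 2.13, Parp1 with 18.8 ± 2.34, Ruvbl1 with 18.5 ± 1.85 and Xrcc5 with 17.8 ± 1.02. The ranges of mean ± SD of Atm and Msh6 overlapped, and so did those of the next 4. At the other end, Brca2 had 1.36 ± 0.182 FPM per kb, Brca1 1.31 ± 0.223, Palb2 1.15 ± 0.183, Chek1 0.910 ± 0.275, Fancd2 0.882 ± 0.275, Xrcc3 0.867 ± 0.0960, Fanca 0.672 ± 0.139 and Rad54l 0.422 ± 0.0984. Brca2, Brca1 and Palb2 overlapped in their ranges of mean ± SD, and so did Chek1, Fancd2, Xrcc3 and Fanca. The median gene tested had 4.51, and 20 repair genes lay above it and 17 below. All 7 homologous recombination genes and all 4 crosslink genes were among the 17. By role, the median level was 1.31 FPM per kb for homologous recombination and 1.99 for crosslink repair. It was 5.75 for damage signalling, 8.78 for nucleotide excision repair, 9.58 for end joining, 10.5 for base excision repair, 13 for end resection and 15.1 for both mismatch repair and the TIP60 genes. Within the MRN complex, Rad50 (15.5) and Nbn (15.1) were close and Mre11a was lower (11.0). Of the Ku pair, Xrcc5 (17.8) exceeded Xrcc6 (9.58) per kb. Their mean FPM was close, 45.4 and 42.9, so that this gap comes mostly from the annotated exon lengths of 2555 and 4476 bases. Exon length is the union of all annotated exons, which lowers the value of genes with long rare exons, such as Atr (5.75 over 23629 bases).

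The repair genes varied less between libraries than the tested genes as a whole, but the sets were not matched for level. Only 4 of the 37 had a mean under 5 FPM. The ratio of the highest to the lowest library, on the scale of FPM + 0.5, had a median of 1.27 over the 37 genes. It was 1.34 over the 120 other repair genes described below and 1.46 over all genes tested. On the values as deposited, with no background taken off, it was 1.10 for Fanci, 1.11 for Rbbp8 and 1.11 for Xrcc4. It reached 1.76 for Rad54l, 2.07 for Chek1 and 2.13 for Fancd2. By role, the median ratio ran from 1.14 for end resection and the MRN complex to 1.49 for homologous recombination. The 3 genes of widest ratio had low values, at most 11.0 FPM in any library. The part of rounding to 1 decimal and of sampling few fragments was not tested, since the depth is unknown.

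Some repair genes share exons with a neighbour, and their values are uncertain, because the sources used here do not state whether strand entered the authors' counting. Of the 37 genes, 22 share at least 1 exonic base with another gene and 8 share at least 10% of their exon length. Apex1 shares 61.7% with Pip4p1 on the opposite strand. Ercc2 shares 24.6% with the antisense gene Gm26852 and 17.8% with Klc3, Fanci 16.0% with Polg, Rad54l 15.4% with Lrrc41 and Trp53bp1 15% with Tubgcp4. Kat5 shares 12.1% with Rnaseh2c, Ogg1 10.6% with Camk1 and Fanca 10.5% with Zfp276. All of these neighbours lie on the opposite strand. Pms2 shares 4.85% of its exon length with Gm42421 on the same strand.

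A wider list of 120 other repair genes, all of them found and tested, gave the same count of calls. Between the genotypes limma called 0 of the 120 in either direction, with 68 fitted log2 differences above 0, 52 below and a median of 0.01. At an unadjusted p under 0.05 there was 1 gene. The groups did not overlap for 2 of the 120 (1.67%), both lower in KO, beside 1.79% of all genes, and for none in the other direction, beside 1.09%, so that the share is near the background. Above 0, Nhej1 and Babam1 had the smallest p of the genes given here. Nhej1, which encodes the end joining factor XLF, measured 1.5, 2.4 and 4.4 in WT and 4.6, 3.6 and 4.2 in KO, a log2 difference of 0.46 (SE 0.320; limma adjusted p = 1). Its value in WT 4 lay among the KO values. Babam1, a subunit of the BRCA1-A complex, measured 21.0, 23.2 and 28.4 in WT and 28.8, 32.3 and 26.1 in KO (log2 difference 0.20, SE 0.146; limma adjusted p = 1).

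Below 0, the 3 genes of smallest p were Brip1, Gen1 and Apex2. Brip1, the helicase that binds BRCA1, measured 11.3, 9.6 and 8.2 in WT and 6.7, 6.6 and 7.7 in KO. Each KO value was lower than any WT value, with a log2 difference of -0.39 (SE 0.168, unadjusted p = 0.0469; limma adjusted p = 1). Gen1, a resolvase of recombination intermediates, measured 10.2, 8.3 and 7.8 in WT and 6.0, 7.2 and 7.0 in KO, again without overlap (log2 difference -0.35, SE 0.171; limma adjusted p = 1). Apex2, an endonuclease related to Apex1, measured 12.5, 12.3 and 12.7 in WT and 9.3, 10.6 and 12.4 in KO, a log2 difference of -0.27 (SE 0.141; limma adjusted p = 1). The values of Brca1, whose product binds that of Brip1, and of Apex1 overlapped between the groups. Of these 5 genes, Babam1 turned to below 0 with spike-in scaling, and the other 4 kept their sign under it.

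Promoters of the repair genes were searched for letters of motifs linked to the cell cycle and to general promoters, since several of these genes are known to be used in S phase. RefSeq promoters (build GRCm38.p6, 250 bases before to 50 after the gene start) were matched for 30 of the 37 genes, with 33 promoters in all, and both strands were searched. The 9 motifs were chosen with the sequences at hand, so that the shares below are a description. The E2F letters TTTCCCGC, TTTCGCGC, TTTGCCGC and TTTGGCGC were found in 4 of the 33 promoters, those of Brca2, Chek2, Msh6 and Xrcc6, and in 2.26% of the 32851 promoters of all genes. E2F factors are known for driving genes of S phase. The 4 windows are shown because their letters are those of this motif, with the match in capitals and 10 bases on either side.
Chek2, chr5:110839821-110839848, plus strand: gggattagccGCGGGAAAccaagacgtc
Brca2, chr5:150522443-150522470, plus strand: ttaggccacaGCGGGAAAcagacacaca
Xrcc6, chr15:82016313-82016340, plus strand: gggggtggaaGCGGGAAAtgcgagtggg
Msh6, chr17:87975055-87975082, plus strand: tcctcccgacTTTCCCGCcagcggcggc
The match begins 152 bases before the gene start in Chek2, 168 in Brca2 and 46 in Xrcc6, and lies just after the start in Msh6. In the first 3 it reads GCGGGAAA on the plus strand, the reverse complement of TTTCCCGC, the letters in Msh6. The values of these 4 genes did not move alike over the libraries: Brca2 was highest in WT 1, Chek2 in KO 5, Msh6 in WT 4 and Xrcc6 in KO 1. With the background level taken off, Brca2 was highest in KO 5 (19.5, beside 17.7 in WT 1), as Chek2 was. Msh6 and Xrcc6 kept their highest library.

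Of the other motifs, the CCAAT box (CCAAT) was in 20 of the 33 promoters, beside 37.4% of all promoters, and the TATA box (TATAAA) in 3, beside 13.6%. The cell cycle element CHR (TTTGAA) was in 1, that of Kat5, beside 17.9%, and the cyclic AMP element (TGACGTCA) in 1, that of Brca2, beside 1.79%. The NRF1 motif, given by name only, was in 1 promoter, that of Lig4, beside 0.971% of all, and the YY1 motif, likewise, in 0, beside 0.633%. The ETS letters ACCGGAAGT were in 2, those of Ogg1 and Palb2, beside 1.10% of all. The letters CATG, the core of a p53 site, were in 19, beside 61.1%. A match says only that the letters are in the window.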

How the data were processed

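RNA sequencing libraries of 6 samples were used, 3 per group. Per the labels' protocols, RNA of whole CD4 T cells was depleted of ribosomal RNA and made into stranded TruSeq libraries. Per the submitters' processing notes, the tools were STAR, featureCounts, DESeq and DESeq2 on the build GRCm38.p3, with no role or version. What the authors deposited is robust FPM, rounded to 1 decimal and treated as RPM. Depth is unknown. Another 6 columns, whose names carry the word act where those used carry rest, matched no sample and were not used. The 92 ERCC spike-in rows, added RNAs of known amount, were left out of the tests. Genes with a mean of at least 1 were kept (14944), and log2(value + 0.5), which understates differences of low genes, was fitted on genotype and library series (limma 3.58.1, R 4.3.3, mean-variance trend, two-sided). P-values were adjusted by Benjamini-Hochberg over all genes (threshold 0.05). The series' design text calls the samples biological replicates. The script was tested on simulated data. Coordinates and exon lengths are from GENCODE M21 (GRCm38). The members and lists were chosen with earlier results of these data known. Values and statistics are given for the member of smallest p in each of 9 roles and for Brca1, Atm, Kat5, Ruvbl1 and Prmt5, and of the other repair genes for the 3 of smallest p in each direction (1 of these is not reported here); Xrcc3 was added as the end of the range, and members without overlap between series after their values were seen. Alternatives changed the pseudocount (0.1 and 1), filter, terms, scaling, variance model and libraries, and background subtraction was added after seeing the data. Python 3.11.15 and matplotlib 3.10.9 drew the figures.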

Additional observations from a re-analysis of the deposited data

How the results depend on the processing

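Limma called 0 of the 37 repair genes and 0 of the 120 other repair genes between the genotypes under every alternative run, and 0 of the 37 between the series. Over all genes, 5 were called between the genotypes with a replicate block in place of the series term. The groups share only the replicate numbers 1 and 4. The deviations of same-numbered samples from their group means correlated at -0.16 and -0.41 over 14944 genes, and those of WT 1 and KO 4 at 0.485. The group means mix the series in different shares, so these values cannot decide whether the numbers pair the samples. The number of genes called between the series, 21, was 54 with a mean of at least 5, 87 with no genotype term, 37 with robust empirical Bayes, 11 with spike-in scaling, 0 without a mean-variance trend, and between 0 (without KO replicate 1 or without WT replicate 4) and 111 (without WT replicate 1) with 1 library left out. The median log2 difference of the repair genes between the genotypes, -0.02, was -0.23 with spike-in scaling, which moved the median of all genes from 0.01 to -0.20, and ran from -0.078 without KO replicate 1 to 0.085 without WT replicate 4. Between the series it ran from -0.094 without WT replicate 4 to 0.10 without KO replicate 1.

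Small differences turned easily: 34 of the 37 genes turned direction between the genotypes, and 23 between the series, under at least 1 alternative. Spike-in scaling turned 15 of them between the genotypes, among those named Xpa (-0.14), Parp1 (-0.059), Kat5 (-0.064), Ruvbl1 (-0.075), and of the other repair genes Babam1 (-0.013). Atm was 0.032 with no series term and 0.0024 with total-sum scaling. With 1 library left out, the log2 difference ran from -0.24 to 0.039 for Brca1, -0.39 to 0.040 for Palb2, -0.14 to 0.016 for Rbbp8, -0.096 to 0.037 for Atm, -0.20 to 0.088 for Trp53bp1, -0.22 to 0.014 for Pms2, -0.017 to 0.17 for Xpa, -0.094 to 0.41 for Parp1, -0.017 to 0.30 for Ruvbl1 and -0.16 to 1.08 for Nhej1. These turns came without KO replicate 1 or without WT replicate 4. Differences that kept their sign ran from -0.38 to -0.053 for Fanca, 0.073 to 0.32 for Xrcc3, -0.14 to -0.0030 for Prkdc, 0.0050 to 0.30 for Kat5, -0.60 to -0.19 for Brip1 and -0.58 to -0.13 for Gen1. The cause was not tested. With 3 libraries per group and unknown depth, differences within the intervals given remain possible under the deposited scaling. The intervals are not a limit of detection, since Prmt5, with a log2 difference of -0.78, was not called either.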
